A study of Bos taurus with 60 samples.

Results

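The microRNAs bta-miR-10a, bta-miR-10b, bta-miR-196a and bta-miR-196b of cattle, whose genes stand in HOX clusters, were followed along the gut. They were taken by name as 4 of the 608 miRNA entries of a read count table from 60 small-RNA libraries. The titles carry 10 letters, A to J, each taken here as 1 animal sampled in 6 gut regions: duodenum, proximal jejunum and distal jejunum of the small intestine, and cecum, spiral colon and descending colon of the large intestine. Animals A to E were non-shedders, in whose faeces *Escherichia coli* O157 was not found, and animals F to J were super-shedders, which excreted the bacterium above the threshold of the study. Each of the 12 groups of region and status thus held 5 libraries. The labels give no breed, age or sex. The samples were frozen biopsies taken after the animals' death, so a library mixes epithelium, muscle, stroma and blood cells, and in such bulk RNA fewer cells of a type and less RNA per cell cannot be told apart.

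HOX genes encode transcription factors that stand in clusters, and their order in a cluster follows the order in which they are expressed along the body from head to tail. The miR-10 and miR-196 genes lie inside these clusters: miR-10 beside the anterior-to-middle HOX genes and miR-196 beside posterior ones. In vertebrates miR-196 is known to cleave Hoxb8 mRNA, as first worked out in mouse, and miR-10 is known to repress some HOX mRNAs. The gut itself is patterned from front to back by HOX genes, the posterior ones being used in the hindgut.

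The annotation of the ARS-UCD2.0 assembly places the 4 members in HOX clusters A, B, C and D. MIR10A lies between HOXB4 and HOXB5, within the span annotated for HOXB3, and MIR10B lies within HOXD4. The genes MIR196A-1 and MIR196A-2 give bta-miR-196a: MIR196A-1 lies within the span of HOXB9, next to HOXB8 and PRAC2, and MIR196A-2 lies between HOXC9 and HOXC10. MIR196B lies between HOXA9 and HOXA10. The mature miR-10a and miR-10b are near-identical, as are miR-196a and miR-196b, and how the authors' counting split reads between near-identical entries is not stated in the labels.

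The libraries held 535373 to 19346766 counts, with a median of 1735050. Levels below are CPM (counts per 1000000 counts) scaled by the trimmed mean of M values (TMM), so their sum differs between libraries. Both miR-10 members were abundant: bta-miR-10b took 6.25% and bta-miR-10a 3.85% of all counts, ranks 3 and 4 among all entries. The miR-196 members were scarce, with 0.0346% for bta-miR-196b and 0.0114% for bta-miR-196a, and each had no count in 6 of the 60 libraries. A library's floor of 3 counts corresponded to between 0.212 and 3.19 CPM. The smooth muscle miRNA miR-143 alone took 51.8% of the counts. Among marker miRNAs, the summed epithelial level over 9 entries had a median of 165854 CPM in the small and 102151 CPM in the large intestine, and the summed smooth muscle level over 5 entries had medians of 423589 and 566298 CPM. The leukocyte sum had medians of 7022 and 4108 CPM. The part of tissue makeup in the results on the members was not tested.

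Some libraries stood apart from their labels. With the 4 members left out, the miRNA profile of each library was correlated with the mean profiles of the small and the large intestine of the other animals, and 11 of the 60 libraries lay nearer to the other part of the gut. These were the duodenum libraries of A, I and J, the proximal jejunum of I, the distal jejunum of H and I, the spiral colon of C, H and I, and the descending colon of G and H; 2 came from non-shedders and 9 from super-shedders. The 3 duodenum libraries differed by at most 0.00215 in r between both profiles. Among the others the descending colon of H was closest, with r of 0.977 for the small and 0.970 for the large intestine. The proximal jejunum of I was farthest, with 0.854 and 0.886. The duodenum of B, which lay on the side of its label, had 0.97873 and 0.97871. In addition, 4 libraries of animal I (duodenum, both jejunum sites and descending colon) had an epithelial sum under 0.25 of the region's median or over 100 CPM of the liver miRNA miR-122: the epithelial sum was 3073 CPM in the proximal jejunum, 6802 CPM in the distal jejunum and 3626 CPM in the descending colon of I, and miR-122 reached 9635 CPM in its duodenum. All libraries were kept under their labels, and many results that rest on these libraries are given with and without them. The 11 libraries were picked for going against the contrast of large with small intestine. Leaving them out therefore favours wider differences between these parts, and values without them are no independent test.

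Along the gut, all 4 members were higher in the large than in the small intestine, and the duodenum had the lowest median level of each. For bta-miR-10a, edgeR called no large-intestine region above either jejunum site, so its difference rests on the duodenum. With all libraries it also called none above the distal jejunum for bta-miR-10b, bta-miR-196a or bta-miR-196b. The cecum was called above the proximal jejunum for each of these. Spiral colon minus distal jejunum gave -0.0088, 0.98 and 1.99 on the log2 scale in that order. Descending colon minus distal jejunum gave 0.56, 0.38 and 1.59. By edgeR's quasi-likelihood test over the 60 libraries, 4 of 4 members passed a Benjamini-Hochberg adjusted p of 0.05 for higher levels in the large intestine, against a background of 11.8% of the 288 miRNAs tested. The differences in log2 level were 1.49 ± 0.26 (SE) for bta-miR-10a (adjusted p = 3.27e-05), 1.64 ± 0.30 for bta-miR-10b (adjusted p = 6.00e-05), 4.08 ± 0.53 for bta-miR-196a (adjusted p = 1.43e-07) and 4.74 ± 0.78 for bta-miR-196b (adjusted p = 1.62e-05). These correspond to 2.80-fold, 3.11-fold, 16.9-fold and 26.6-fold. The sizes for both miR-196 members lean on duodenum counts near the floor. Among the miRNAs called higher, the members held ranks 1, 2, 4 and 5 by size, with bta-miR-205 between them at rank 3. Without the 11 libraries nearer to the other part of the gut the differences were 2.02, 2.39, 4.62 and 7.04 in the same order, so that of bta-miR-196b grew by the most, and 28.6% of all miRNAs were then called higher. Scaling by total counts instead of TMM moved the median difference of all miRNAs from -0.0066 to -0.22 and the share of calls that were higher from 43.6% to 20.2%. The members' differences under that scaling, 1.32, 1.49, 3.84 and 4.74, stood 1.54, 1.71, 4.06 and 4.96 above its median.

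**Figure D1:**
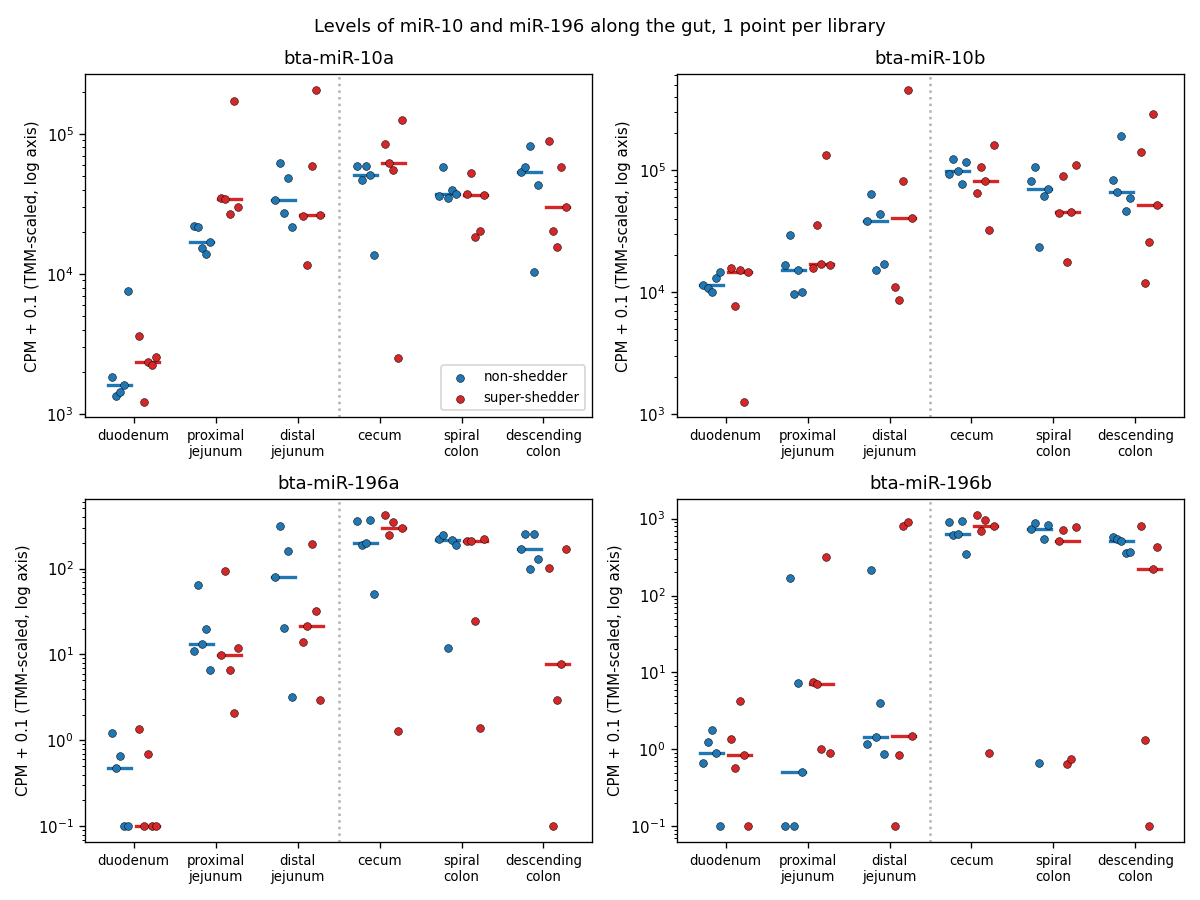
Level of each member in every library, as TMM-scaled CPM plus 0.1 on a log axis, by region, with 1 point per library (blue non-shedders, red super-shedders) and a bar at the median of each group of 5. All 4 members are lowest by median in the duodenum, and bta-miR-196b splits into libraries under 10 CPM and libraries above 100 CPM.

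**bta-miR-10a** rose at the first border of the gut and varied around a plateau beyond it. In the duodenum it ranged from 1227 to 7524 CPM (median 2041; mean ± SD 2573 ± 1882, n = 10). In the proximal jejunum it ranged from 13892 to 173063 CPM (median 24418), in the distal jejunum from 11639 to 205822 CPM (median 30280). The 10 duodenum libraries lay below all 20 jejunum libraries, as in 0.694% of the 288 miRNAs tested. In the large intestine it ranged from 2522 to 125628 CPM in the cecum (median 56978), from 18502 to 57857 CPM in the spiral colon (median 36872) and from 10371 to 88810 CPM in the descending colon (median 48446). The highest of all 60 values belonged to the jejunum of animal I, and the lowest large-intestine value to the cecum of the same animal.

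The step from duodenum to proximal jejunum was 3.67 ± 0.49 on the log2 scale, a 12.8-fold difference (adjusted p = 2.50e-07). It was positive in 10 of 10 animals, from 1.18 to 6.27 (exact sign-flip test, p = 0.00195, the smallest it can give; adjusted p = 0.0293 over the 30 border tests). Of the later borders, none was called for bta-miR-10a: distal minus proximal jejunum gave 0.62 ± 0.44, cecum minus distal jejunum 0.13 ± 0.44, spiral colon minus cecum -0.58 ± 0.44 and descending minus spiral colon 0.32 ± 0.44. Against the proximal jejunum the cecum gave 0.75, the spiral colon 0.17 and the descending colon 0.48. Against the distal jejunum the spiral colon gave -0.45 and the descending colon -0.14. None of these was called by edgeR either (adjusted p from 0.268 to 0.922). The order of the medians was duodenum, proximal jejunum, distal jejunum, spiral colon, descending colon and cecum, and within that order the first 2 neighbours differed beyond their spread. Over the animals, the large intestine stood 1.51 ± 1.25 (SD, n = 10) above the small on the log2 scale, in 9 of 10 animals (exact sign-flip test, p = 0.00977, adjusted p = 0.0146 over 6 measures).

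**bta-miR-10b** was already high in the duodenum and rose later. Its duodenum levels ranged from 1259 to 15782 CPM (median 12212), and its proximal jejunum levels from 9570 to 132058 CPM (median 16594). The groups overlapped, and the difference of 1.22 ± 0.52 on the log2 scale was not called (adjusted p = 0.141). In the distal jejunum it ranged from 8527 to 454764 CPM (median 39493), in the cecum from 32372 to 161554 CPM (median 95860), in the spiral colon from 17670 to 109273 CPM (median 65505) and in the descending colon from 11875 to 286377 CPM (median 62477). Every cecum library lay above every duodenum library, as in 0.347% of all miRNAs tested, and the distal jejunum overlapped both. In order of median the regions ran from duodenum and proximal jejunum through distal jejunum, descending colon and spiral colon to the cecum, and no 2 neighbours along the gut were called different for bta-miR-10b by edgeR. By animal, the spiral colon stood below the cecum in 9 of 10, by a mean difference of -0.66 ± 0.84 (SD; exact sign-flip test, p = 0.0176, adjusted p = 0.105), which did not pass the adjustment. Without the 11 libraries this held in 7 of 7 animals, at -0.41 ± 0.21 (exact sign-flip test, p = 0.0156, the smallest 7 animals can give; adjusted p = 0.0521).

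The cecum stood above the distal jejunum by 0.55 ± 0.51 in bta-miR-10b with all libraries (adjusted p = 0.526). Without the 11 libraries nearer to the other part of the gut, a choice that favours this step, it was 1.76 ± 0.37 (adjusted p = 5.31e-04). In that fit 14.1% of all miRNAs were called higher in the cecum. Without the libraries of animal I the step was 1.5 (adjusted p = 0.00656). By animal it was positive in 9 of 10, with the exception at -3.81, and the mean was 1.29 ± 2.11 (SD, n = 10; exact sign-flip test, adjusted p = 0.229). The step of the whole large over the whole small intestine was 1.83 ± 0.77 (SD) and positive in 10 of 10 animals (exact sign-flip test, p = 0.00195, adjusted p = 0.00586).

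**bta-miR-196a** was near the floor in the duodenum and higher in every region beyond it. The 10 duodenum libraries held 7 counts of it among 17016192, which is 0.411 CPM before TMM scaling (95% exact Poisson interval 0.165 to 0.848, counting error only), and no duodenum library held more than 2. In the proximal jejunum it ranged from 2.01 to 93.2 CPM (median 11.5) and in the distal jejunum from 2.83 to 310 CPM (median 26.9). All duodenum libraries lay below all jejunum libraries, and bta-miR-10a and bta-miR-196a were the 2 miRNAs of the 288 for which this held. In the cecum it ranged from 1.19 to 422 CPM (median 270), in the spiral colon from 1.30 to 248 CPM (median 210) and in the descending colon from 0 to 253 CPM (median 115). The wide ranges of the large intestine came from a few low libraries: 23 of 30 held at least 50 CPM.

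The step of bta-miR-196a from duodenum to proximal jejunum was 5.77 ± 1.14 on the log2 scale (adjusted p = 3.12e-04), a size that rests on the near-floor duodenum counts. It was positive in 10 of 10 animals (exact sign-flip test, p = 0.00195, adjusted p = 0.0293). Distal minus proximal jejunum was 1.72 ± 0.77 and cecum minus distal jejunum 1.66 ± 0.76, neither called, with adjusted p of 0.998 and 0.145. The second became 2.62 ± 0.70 (adjusted p = 0.00412) without the 11 libraries, a choice that favours it, and 2.36 without animal H (adjusted p = 0.0400). Spiral colon minus cecum was -0.68 ± 0.74 and descending minus spiral colon -0.59 ± 0.74, also not called. In the 7 spiral colon libraries whose profile matched their label, bta-miR-196a stood at 216 ± 18.5 CPM (SD). Over the animals the large intestine stood 3.74 ± 2.17 (SD, n = 10) above the small in 10 of 10 (exact sign-flip test, p = 0.00195, adjusted p = 0.00586).

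**bta-miR-196b** was either scarce or abundant, with few levels between. In the duodenum all 10 libraries held 0 to 7 counts, 19 in total or 1.12 CPM before TMM scaling (95% exact Poisson interval 0.672 to 1.74). In the proximal jejunum 8 of 10 libraries held 0 to 7.49 CPM, and the others were B with 167 CPM and I with 316 CPM. In the distal jejunum 7 of 10 held 0 to 3.92 CPM, and B had 214, H 792 and I 894 CPM. No library of the small intestine lay between these sets, and 25 of 30 were under 10 CPM.

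In the cecum 9 of 10 libraries held 346 to 1121 CPM of bta-miR-196b, and that of I held 0.794 CPM from 2 counts. In the spiral colon 7 of 10 held 518 to 873 CPM, and C, H and I each held 1 count, or 0.564, 0.550 and 0.652 CPM. In the descending colon 8 of 10 held 224 to 804 CPM, G held 2 counts and H none. Thus 24 of 30 large-intestine libraries held at least 50 CPM, and the other 6 lay within the range of the duodenum, which reached 4.11 CPM.

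Of the 11 libraries in which bta-miR-196b went against the labelled part of the gut (at a 50 CPM division set after its values were seen), 8 were also nearer to the other part of the gut by the rest of their profile. The other 3 were the proximal and distal jejunum of B, with levels of 167 and 214 CPM in a profile nearer to the small intestine, and the cecum of I, with 0.794 CPM in a profile nearer to the large. Of these 11 libraries, 3 came from non-shedders and 8 from super-shedders. Whether a biopsy came from another site than labelled was not tested.

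**Figure D2:**
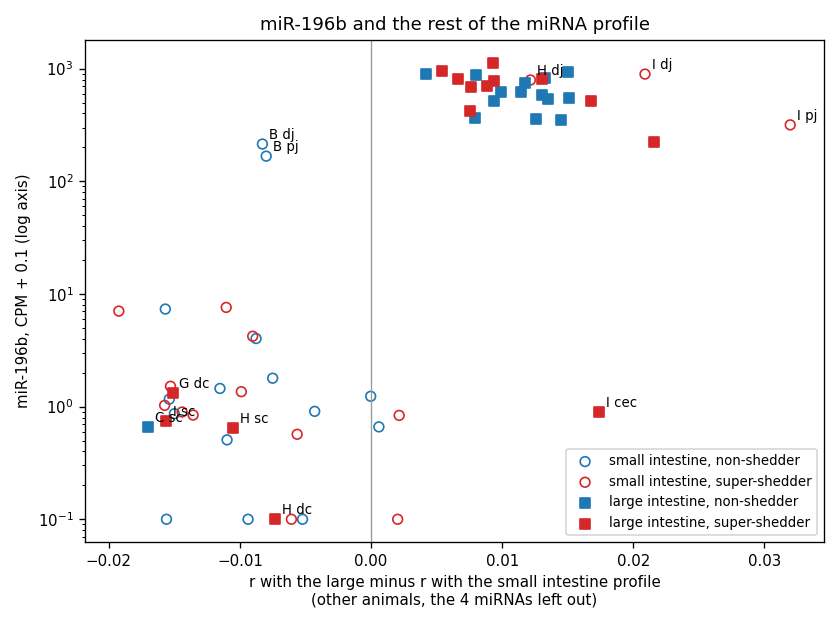
Level of bta-miR-196b in each library (CPM plus 0.1, log axis) against the difference between the library's Pearson r with the large-intestine and with the small-intestine profile of the other animals, computed without the 4 members; open circles are small and filled squares large intestine, blue non-shedders and red super-shedders. Libraries that go against their label are named by animal and region (pj, proximal jejunum; dj, distal jejunum; cec, cecum; sc, spiral colon; dc, descending colon), and 8 of these 11 lie on the other side of 0.

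For bta-miR-196b the step from duodenum to proximal jejunum was 5.5 ± 1.53 on the log2 scale (adjusted p = 0.0161), but it rests on the libraries of B and I. It was 3.34 without animal B (adjusted p = 0.349) and 3.42 without animal I (adjusted p = 0.163). With the animal as a replicate block the step was 4.15 (adjusted p = 0.144), and by animal it was positive in 7 of 10 (exact sign-flip test, adjusted p = 0.261). The step from distal jejunum to cecum was 2.5 ± 1.17 and not called (adjusted p = 0.154). That step was called with the replicate block, at 4.37 (adjusted p = 0.0250), in a fit that called 7.97% of all miRNAs higher. It was also called without animal B at 4.78 (adjusted p = 0.0276) and without animal I at 3.05 (adjusted p = 0.0439). Without the 11 libraries, a choice that favours this step, it was 6.84 ± 1.23 (adjusted p = 1.31e-04). By animal it was positive in 9 of 10, with a median of 8.57 (exact sign-flip test, p = 0.0371, adjusted p = 0.159). The negative one was animal I, at -9.81. Over the animals the whole large intestine stood 5.79 ± 4.85 (SD, n = 10) above the small in bta-miR-196b, in 8 of 10, from -3.48 to 10.3 (exact sign-flip test, p = 0.00977, adjusted p = 0.0146). Spiral colon minus cecum was -0.51 ± 1.11 and descending minus spiral colon -0.40 ± 1.11, neither called.

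Taking the borders as a set, 3 of 4 members were called higher in the proximal jejunum than in the duodenum, where 4.86% of all miRNAs were. Against the duodenum all 4 members were called higher in each region beyond the proximal jejunum. The background there was 4.86% for the distal jejunum, 6.94% for the cecum, 5.21% for the spiral colon and 7.99% for the descending colon. For bta-miR-196b in the distal jejunum the difference of 6.82 ± 1.58 rests on 3 of 10 libraries, those of B, H and I. Its median was 1.38 CPM there and 0.771 CPM in the duodenum. Without the libraries of H and I, which were nearer to the large intestine by profile, the distal jejunum median was 1.21 CPM. Between distal and proximal jejunum edgeR called no member and 0% of all miRNAs, with 2 members at an unadjusted p under 0.05 and no call by DESeq2. Between cecum and distal jejunum it called 0 of 4 members where 8.68% of all miRNAs were called, with 2 members at an unadjusted p under 0.05 and 0 members called by DESeq2. With the 11 libraries nearer to the other part of the gut left out, 3 of 4 members were called higher in the cecum, where 14.1% of all miRNAs were in the same fit. Within the large intestine edgeR called no member, none had an unadjusted p under 0.05 by edgeR and DESeq2 called none, against 0.347% of all miRNAs for spiral colon minus cecum and 0% for descending minus spiral colon. In the test of any difference among the 6 regions all 4 members were called, with a background of 21.9%.

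The balance within the miR-10 pair also shifted along the gut. The log2 ratio of bta-miR-10b to bta-miR-10a counts had a median of 2.64 in the duodenum (range -0.84 to 3.02), so that 9 of 10 libraries held more bta-miR-10b than bta-miR-10a. It had a median of -0.54 in the proximal jejunum (range -1.13 to 0.44) and -0.05 in the distal jejunum (range -1.24 to 1.14). In the cecum it was 0.70 (range -0.40 to 3.68), in the spiral colon 0.82 (range -0.58 to 1.58) and in the descending colon 0.69 (range -0.76 to 2.31). The ratio fell at the first border in 9 of 10 animals, by 2.58 ± 1.19 (SD; exact sign-flip test, p = 0.00391, adjusted p = 0.0391), with animal I the exception. It was higher in the cecum than in the distal jejunum in 9 of 10 animals, by 1.21 ± 1.12 (exact sign-flip test, p = 0.00586, adjusted p = 0.0439). Both shifts kept their direction without the 11 libraries, at -2.83 in 7 of 7 animals and 1.18 in 7 of 8 (exact sign-flip test, each p = 0.0156, adjusted p = 0.0521). Over the whole large against the whole small intestine these opposite shifts left a mean of 0.33 ± 0.93 (exact sign-flip test, p = 0.395).

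In the miR-196 pair the medians of the ratio also differed between regions, but no border passed the test. The log2 ratio of bta-miR-196b to bta-miR-196a counts had a median of -2.85 in the proximal jejunum (range -5.21 to 7.18) and -2.60 in the distal jejunum (range -6.07 to 4.78). In the cecum its median was 1.45 (range -0.49 to 2.78), in the spiral colon 1.54 (range -4.92 to 2.14) and in the descending colon 1.64 (range -3.46 to 4.79). Of the 20 jejunum libraries, 15 held under 10 CPM of bta-miR-196b, while all 20 held some count of bta-miR-196a, which is a looser cut. Some of the 15 held little of both. The proximal jejunum of F had 13 counts of bta-miR-196a and 10 of bta-miR-196b, and the distal jejunum of J had 6 and 3. In the large intestine bta-miR-196b was by median the more counted of both. The distal jejunum of D held 283 counts of bta-miR-196a and 7 of bta-miR-196b, and that of A held 75 and 1. The opposite occurred in the proximal jejunum of I, with 6 counts of bta-miR-196a and 944 of bta-miR-196b.

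In such libraries, picked for their extreme ratios, the rarer entry was a small share of the pair. The intervals given here cover counting error and do not allow for that choice. How reads were split between near-identical entries was not tested. In the distal jejunum of D bta-miR-196b was 2.41% of the pair (95% exact Clopper-Pearson interval 0.976% to 4.91%), and in the proximal jejunum of I bta-miR-196a was 0.632% (interval 0.232% to 1.37%). By animal, the log2 ratio was 2.01 ± 2.98 (SD, n = 10) higher in the large intestine, in 8 of 10 animals, and was not called (exact sign-flip test, p = 0.0586, adjusted p = 0.0703). It was called without animal H, at 2.57, and without animal I, at 2.61 (each adjusted p = 0.0281 by the same exact test). At the border from distal jejunum to cecum it was higher in 8 of 10 animals by 3.52 ± 3.98 (exact sign-flip test, adjusted p = 0.146). Without the 11 libraries it was higher in 8 of 8 by 5.13 ± 2.01 (exact sign-flip test, p = 0.00781, the smallest 8 animals can give; adjusted p = 0.0521).

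**Figure D3:**
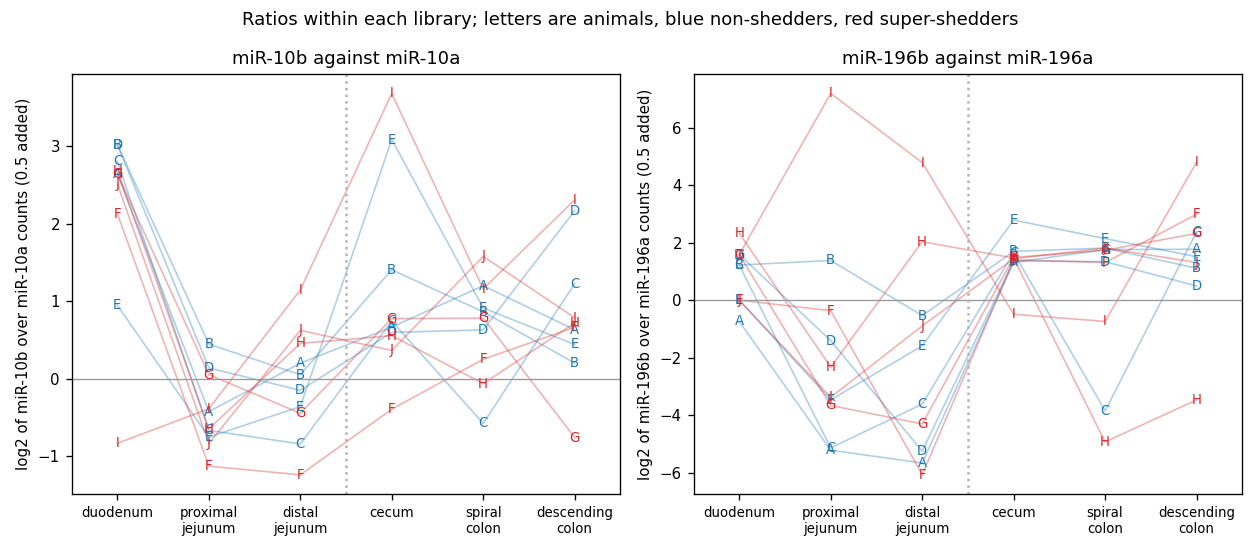
Log2 ratio of bta-miR-10b to bta-miR-10a counts (left) and of bta-miR-196b to bta-miR-196a counts (right) in each library, with 0.5 added to counts, by region; each letter is an animal and thin lines join an animal's regions (blue non-shedders, red super-shedders). The left ratio drops from a median of 2.64 in the duodenum to -0.54 in the proximal jejunum, and the right ratio has medians of -2.60 in the distal jejunum and 1.45 in the cecum.

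**Figure D4:**
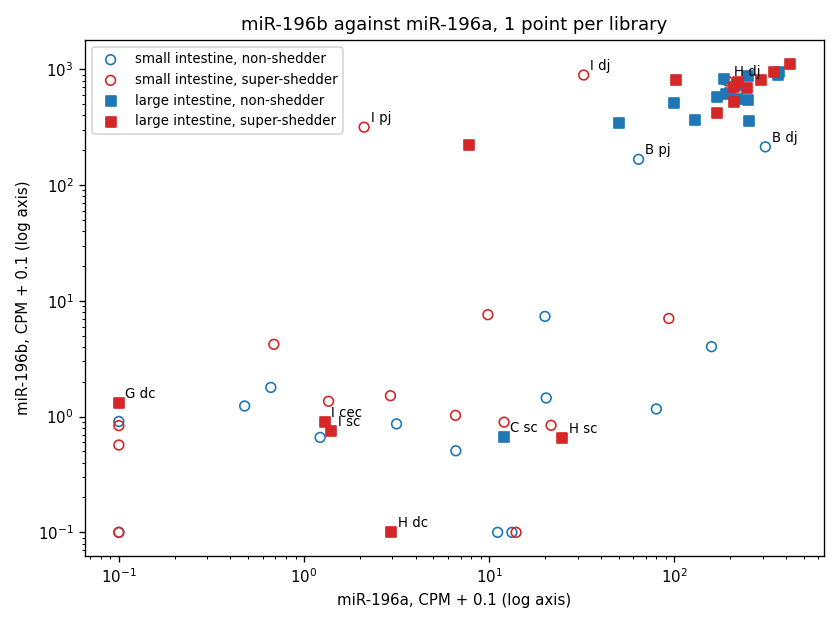
bta-miR-196b against bta-miR-196a in each library, both as CPM plus 0.1 on log axes; open circles are small and filled squares large intestine, blue non-shedders and red super-shedders, and named points are libraries whose bta-miR-196b goes against the labelled part of the gut. Jejunum libraries spread along the bottom, with up to 158 CPM of bta-miR-196a at under 10 CPM of bta-miR-196b, and most large-intestine libraries gather at the top right.

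The study compared super-shedders with non-shedders to look for miRNAs that go with shedding of the bacterium. For the 4 members no such difference was called in any region or over all regions. With the 6 libraries of an animal added up, the super-shedder minus non-shedder difference was 0.46 ± 0.31 for bta-miR-10a, 0.27 ± 0.35 for bta-miR-10b, -0.30 ± 0.57 for bta-miR-196a and -0.0025 ± 0.19 for bta-miR-196b on the log2 scale. Raw counts were added, so the deeper libraries of an animal weigh more, such as the descending colon of A with 19346766 counts. These sums therefore mix the regions unequally between animals. The adjusted p ranged from 0.679 to 0.995 by edgeR, no member had an unadjusted p under 0.05, and neither DESeq2 nor limma called any, with a background of 0.277% of 361 miRNAs. The sign of these values was not stable: bta-miR-10a was -0.12 and bta-miR-10b -0.30 without the 4 libraries of I with low epithelium or high miR-122.

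In the duodenum 2 members passed the filter on low counts and none was called, against 0.418% of all miRNAs tested; the miR-196 entries were too scarce to test. In the proximal jejunum 3 members passed and none was called, against 0% of all. There bta-miR-10a stood at 22162, 21600, 15217, 13892 and 16994 CPM in non-shedders A to E and at 34709, 34473, 26673, 173063 and 29870 CPM in super-shedders F to J. The groups did not overlap, as was so in that direction for 1.69% of the 237 miRNAs tested there, and 24 of the 237 had an unadjusted p under 0.05. The difference was 1.73 ± 0.55 on the log2 scale (unadjusted p = 0.00999 by edgeR, adjusted p = 0.352), and without the library of I it was 0.81 ± 0.20 (adjusted p = 0.242). By DESeq2 this was also 1 member at an unadjusted p under 0.05 and 0 called.

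In the distal jejunum 3 members passed and none was called, against 0.412% of all. No member had an unadjusted p under 0.05 there by edgeR. By DESeq2 1 member did and 0 were called, where 30 of the 243 miRNAs tested had such a p. In super-shedders bta-miR-196a stood at 13.9, 21.5, 193, 32.3 and 2.83 CPM and in non-shedders at 79.8, 310, 20.2, 158 and 3.06 CPM. The groups overlapped, with a difference of -1.04 ± 1.12 (adjusted p = 0.776). For bta-miR-10b the difference there was 1.86 ± 1.02 with all libraries and -0.83 ± 0.61 without those of H and I, which are nearer to the large intestine by profile (adjusted p of 0.510 and 0.708).

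In the large intestine all 4 members passed the filter and none was called, against 0% of all miRNAs in the cecum, 0.383% in the spiral colon and 0% in the descending colon. None had an unadjusted p under 0.05 there by edgeR or DESeq2. In the descending colon bta-miR-196a stood at 171, 250, 99.2, 253 and 128 CPM in non-shedders A to E and at 101, 0, 2.86, 7.63 and 170 CPM in super-shedders F to J, and bta-miR-196b stood at 582, 540, 514, 357 and 367 CPM against 804, 1.22, 0, 224 and 423 CPM. Super-shedders thus held the low libraries, although the ranges of both groups overlapped. The differences were -1.62 ± 1.11 for bta-miR-196a and -0.65 ± 1.23 for bta-miR-196b, with an adjusted p of 0.979 each. The low libraries of G and H were among those nearer to the small intestine by profile, and without them the differences were -0.91 ± 0.75 and 0.04 ± 0.42. In the spiral colon, the 4 non-shedder and 3 super-shedder libraries nearer to the large intestine differed by 0.0005 ± 0.16 in bta-miR-196a and by -0.14 ± 0.23 in bta-miR-196b.

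Averaged over the large intestine of each animal, bta-miR-196b had a log2 level of 8.58 ± 1.48 (SD, n = 5) in non-shedders and 6.06 ± 3.51 in super-shedders (exact permutation test, p = 0.270). For bta-miR-196a the values were 7.30 ± 0.92 and 5.24 ± 2.67 (exact permutation test, p = 0.103). None of the 12 such tests passed, the lowest adjusted p being 0.677, where 5 against 5 animals can reach an unadjusted p of 0.00794. No variation of the shedding difference between regions was called for any member by edgeR's interaction test (adjusted p = 0.992 for each, background 0.347%, no member at an unadjusted p under 0.05 and none called by DESeq2).

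The large intestine was also compared with the small within each status. In non-shedders 4 of 4 members were called higher (background 13.2%), by 1.87, 2.16, 4.16 and 5.66 on the log2 scale for bta-miR-10a, bta-miR-10b, bta-miR-196a and bta-miR-196b. In super-shedders 2 of 4 were called (background 1.74%), bta-miR-196a by 3.99 (adjusted p = 8.33e-04) and bta-miR-196b by 3.81 (adjusted p = 0.0370), while bta-miR-10a gave 1.10 (adjusted p = 0.0667) and bta-miR-10b 1.11 (adjusted p = 0.131). DESeq2 called 3 of 4 in super-shedders (background 2.43%), bta-miR-10a being the third at 1.07 (adjusted p = 0.0471). With the animal as a replicate block 1 of 4 was called in super-shedders (background 0.997%), bta-miR-196b standing at 4.91 (adjusted p = 0.0647). That call of bta-miR-196b was also lost on leaving out A, D, F, G or J in turn, and that of bta-miR-196a on leaving out J, at 3.26 (adjusted p = 0.0687). All 4 were called in super-shedders without the 11 libraries, by 2.23, 2.59, 4.83 and 8.41, in a fit that called 18.3% of all miRNAs higher. The difference between the statuses was itself not called for any member (0 of 4, background 0%; 28 miRNAs and no member had an unadjusted p under 0.05, and DESeq2 called none). It was -0.77 ± 0.51, -1.05 ± 0.59, -0.17 ± 1.30 and -1.86 ± 1.49 with all libraries, and 0.40, 0.38, 0.41 and 2.73 without the 11.

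Other miRNAs of HOX clusters and of the miR-10 family were read as a list of 5: bta-miR-615, whose human counterpart lies in the HOXC cluster, and bta-miR-99a-5p, bta-miR-99a-3p, bta-miR-99b and bta-miR-100, whose genes lie outside HOX clusters. The bta-miR-615 entry did not pass the filter, so no HOX-cluster miRNA of this list was tested. The 4 entries from outside HOX clusters passed. Of these, 0 were called in either direction between large and small intestine by edgeR, where 27.1% of all miRNAs were. Their differences ran from -0.40 for bta-miR-99a-5p to 0.05 for bta-miR-99a-3p, with a median of -0.22, against a median of 2.86 for the 4 members and -0.0066 for all 288 tested.

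Across the 60 libraries, log2 levels of the members correlated with each other at Pearson r from 0.65 (bta-miR-10a with bta-miR-196b) to 0.82 (bta-miR-10b with bta-miR-196b), a description in which the points share animals, regions and depth. Within the small intestine the r of bta-miR-196a with bta-miR-196b was 0.51 and within the large intestine 0.87. The miRNAs outside the members that were most like bta-miR-10a over the 60 libraries were bta-miR-130a (r = 0.58), bta-miR-9-5p (0.55) and bta-miR-1 (0.49). For bta-miR-10b they were bta-miR-27a-3p (0.66), bta-miR-27b (0.66) and bta-miR-23a (0.65). For bta-miR-196b they were bta-miR-27a-3p (0.67), bta-miR-27b (0.66) and bta-miR-410 (0.61), the last with r = 0.06 within the small and 0.63 within the large intestine. Those of bta-miR-196a were bta-miR-497 (0.60), bta-miR-199c (0.53) and bta-miR-205 (0.50), the last with r = -0.12 within the small and 0.72 within the large intestine. Each of these values was below the highest r that the same member had with another member.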

How the data were processed

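Small RNA of 60 frozen gut biopsies was sequenced from TruSeq Small RNA libraries, per the labels' protocols. That text names rectal tissue for RNA extraction, while each sample's tissue label names 1 of 6 regions; the tissue labels were used. The authors deposited raw read counts per miRNA, and Bowtie and edgeR are named in the submitters' processing notes without a version; the genome build, the annotation and the handling of multi-mapped reads were not given in the sources used here. The counts were whole numbers and were used as deposited.

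Levels are CPM on TMM-scaled library sizes. Tests used edgeR 4.0.16 (quasi-likelihood F test, filter at a minimum count of 10, Benjamini-Hochberg adjustment over all miRNAs tested, threshold 0.05), in R 4.3.3; regional tests used all 60 libraries with 12 group means, shedding tests the 10 libraries of a region or counts summed per animal. Standard errors are the log2 difference divided by the square root of F. Per-animal tests were exact sign-flip or permutation tests on log2 CPM with a prior count of 0.5, two-sided. DESeq2 1.42.0 and limma 3.58.1 were alternatives. Tested on simulated data with 200 miRNAs changed by 2 on the log2 scale among 288, the test of large against small intestine recovered 100% with 4 false calls. With 182 changed among 255, the test of shedding in the cecum recovered 89.6% with 2 false calls. The simulated counts had the same spread for every miRNA and no effect of the animal. In the real cecum libraries the standard error of the shedding difference was 0.87 for bta-miR-196a and 0.90 for bta-miR-196b. The recovery thus does not say how readily a shedding difference of the members would have been called.

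The title letter was taken as the animal, which pairs the regions; the labels do not say so in words, but each letter has 1 status and 1 library per region. In the data, deviations of same-letter libraries from their group means correlated at 0.145 on average against -0.0271 for other letters. An animal has 1 status, so shedding tests cannot be blocked. Replicates of a group were separate animals and differed by far more than counting noise (chi-square of at least 26.9 per degree of freedom in each of 120 pairs). The 4 members are the rule's own. The kin list held 5 names, and similar miRNAs were the 3 highest Pearson r per member. Members, lists and alternatives were chosen with earlier results of these data known; the border tests by animal and the 50 CPM division were added after seeing the data. Intervals and floors (3 counts) cover counting error only, since PCR reads are not independent molecules.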

Additional observations from a re-analysis of the deposited data

Results flagged for a closer look

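Within the groups of 5 libraries, Dixon's test at 95% was applied to the highest and the lowest log2 level of each member. Over 48 groups, 11 values stood apart. Chance sets apart about 5% of independent groups, but the same libraries were tested for every member, so an odd library can count repeatedly. That rate also does not allow for miR-196 levels near the floor. The share of groups set apart was not worked out for all miRNAs, so the count of 11 stands without a background. The 11 values are given in CPM. For bta-miR-10a they were the lowest non-shedder cecum (E, 13653 against 46738 for the next), the highest non-shedder duodenum (E, 7524 against 1832), the highest non-shedder spiral colon (B, 57857 against 39577), the lowest super-shedder cecum (I, 2522 against 55117) and the highest super-shedder proximal jejunum (I, 173063 against 34709). For bta-miR-10b it was the lowest super-shedder duodenum (I, 1259 against 7677), the library with 9635 CPM of miR-122.

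For bta-miR-196a they were the lowest non-shedder spiral colon (C, 11.9 against 186) and the lowest super-shedder cecum (I, 1.19 against 246). For bta-miR-196b they were the highest non-shedder distal jejunum (B, 214 against 3.92), the lowest non-shedder spiral colon (C, 0.564 against 550) and the lowest super-shedder cecum (I, 0.794 against 688). Animal I gave 5 of the 11. In its cecum 3 of 4 members stood apart together, at levels near those of a duodenum, although the rest of that profile was nearer to the large intestine. The spiral colon of C was nearer to the small intestine by profile. The cause was not tested.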

How the results depend on the processing

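All 4 members stayed called as higher in the large intestine under each alternative tried (other scalings, no filter, DESeq2, each animal left out, both sets of doubted libraries left out, and the animal as a block). The log2 differences ranged from 1.32 to 2.16 for bta-miR-10a, 1.49 to 2.40 for bta-miR-10b, 3.69 to 5.22 for bta-miR-196a and 4.43 to 8.34 for bta-miR-196b. With the animal as a replicate block, the pairing gave differences of 1.58, 1.76, 4.0 and 6.31, and the block changed no regional call of a member other than those given in the report. The count of all miRNAs called between large and small intestine was 78, and became 173 without the 11 libraries nearer to the other part of the gut, 132 without the 4 libraries of low epithelium or high miR-122 and 128 without animal I. Without the filter on low counts 60% of the calls were higher, against 43.6%. DESeq2 called 40 miRNAs between cecum and distal jejunum where edgeR called 25, 17 against 6 between large and small intestine in super-shedders, 11 against 1 for shedding over all regions (limma 4), and, for shedding, 3 against 0 in the proximal jejunum, 3 against 1 in the distal jejunum, 1 against 0 in the cecum and 2 against 1 in the spiral colon; none of the shedding calls was a member.

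The members called between cecum and distal jejunum were 0 of 4, and became 3 without the 11 libraries, also with the replicate block (an alternative chosen after seeing the data), 1 with the block alone, 1 without the 4 libraries and 0 to 2 on leaving out an animal. The members called in super-shedders between large and small intestine were 2, and became 4 without the 11 libraries with or without the block, 4 without the 4 libraries, 4 with total-count scaling, 3 by DESeq2, 1 with the block, 1 without the filter and 0 (without J) to 4 (without I) on leaving out an animal. In super-shedders the share of all miRNAs called higher was 18.3% without the 11 libraries, 2.43% by DESeq2 and 0.997% with the block. Between cecum and distal jejunum it was 14.1% without the 11 libraries and 7.97% with the block alone. For the other alternatives of both comparisons the share was not worked out. Their counts of members thus stand without a background. The ratio of bta-miR-196b to bta-miR-196a by animal was called with a prior count of 5, at 1.66, and ranged from 1.63 to 2.61 on leaving out an animal.

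Of the differences given as values in the text, signs reversed only in some that were called under no setting. Of the other 13 shedding differences of a member within a region, 11 changed sign under at least 1 setting and 0 were called under any. Without the 11 libraries, the log2 difference by shedding over all regions was -0.0342 for bta-miR-10a, that of bta-miR-10b in the distal jejunum -0.831, that of bta-miR-196a in the spiral colon 0.000504 and that of bta-miR-196b in the descending colon 0.0412. The regional step in super-shedders minus non-shedders was then 0.401, 0.383, 0.415 and 2.73 for the 4 members, and bta-miR-196b gave -1.06 for distal minus proximal jejunum and 0.0570 for spiral colon minus cecum. Without the 4 libraries, shedding over all regions gave -0.122 for bta-miR-10a and -0.297 for bta-miR-10b, and bta-miR-10b in the distal jejunum gave -0.0148. For bta-miR-10b over all regions limma gave -0.0454, and for bta-miR-196b RLE scaling gave 0.0269, total-count scaling 0.0592 and DESeq2 0.0268. Total-count scaling gave -0.00267 for bta-miR-10a in descending minus spiral colon. Leaving out an animal gave ranges of -0.222 to 0.802 for bta-miR-10a between cecum and distal jejunum, -1.07 to 0.0197 and -0.846 to 0.578 for the regional step by status of bta-miR-10a and bta-miR-196a, -0.0148 to 2.16 for bta-miR-10b by shedding in the distal jejunum, and -0.183 to 0.410, -0.479 to 0.00423 and -0.0838 to 0.107 over all regions for bta-miR-10b, bta-miR-196a and bta-miR-196b. The cause was not tested. Depth limits the miR-196 entries in the duodenum, where no library held more than 7 counts of either.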
